A study of Caenorhabditis elegans with 4 samples.

Results

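The genes described here are the enzymes that remove superoxide and hydrogen peroxide in the nematode Caenorhabditis elegans: the superoxide dismutases sod-1, sod-2, sod-3, sod-4 and sod-5, the catalases ctl-1, ctl-2 and ctl-3, and the peroxiredoxin prdx-2. They were chosen by their sequence names, with or without an isoform letter, and not by their signal. Their sequence names in the files are, in that order, C15F1.7, F10D11.1, C08A9.1, F55H2.1, ZK430.3, Y54G11A.6, Y54G11A.5, Y54G11A.13 and F09E5.15. All 9 genes were found, in 10 transcripts, among 19380 named genes and 23181 transcripts. Total RNA of early embryos was hybridised to 4 single-colour NimbleGen arrays, labelled replicates 1 to 4 and called arrays 1 to 4. The label of every array is PFR40, a strain with the tm1489 allele of the heterochromatin protein 1 gene hpl-2, with embryos taken by bleaching from worms in liquid culture and no treatment named. The worms are described as hermaphrodites among which some males occurred. The growth protocol, however, names N2 (wild type) adults, so the genotype is stated in conflicting ways. Wild-type arrays that the design text refers to were not analysed here. What follows describes which of the genes gave signal in these embryos and how far the 4 arrays differed, with no comparison of mutant and wild type.

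Superoxide dismutases turn superoxide, mainly a by-product of respiration, into hydrogen peroxide and oxygen. Catalases and peroxiredoxins then break hydrogen peroxide down, catalases by themselves and peroxiredoxins with electrons from the thioredoxin system. C. elegans is known for its several dismutases: sod-1 and sod-5 encode copper/zinc enzymes of the cytosol, sod-2 and sod-3 manganese enzymes of the mitochondria, and sod-4 an extracellular copper/zinc enzyme. In worms, sod-3 is widely used as a reporter of DAF-16, the FOXO factor under insulin signalling, and sod-5 is known for its rise in the dauer larva.

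Of the 9 genes, 6 gave signal above the background of the arrays, namely sod-1, sod-2, ctl-1, ctl-2, ctl-3 and prdx-2. The other 3, sod-3, sod-4 and sod-5, could not be told apart from background, and none was called below it. The split ran within the dismutases, with 2 of 5 above background, while all 3 catalases and the peroxiredoxin were above it. As a reference for low signal served 1343 chemoreceptor genes, whose products act in neurons, and the 95th percentile of their signals was taken as background on each array. It came to linear signals of 272, 349, 306 and 357 on arrays 1 to 4. A gene was called above or below where its log2 signal minus that background differed from 0 in limma with a Benjamini-Hochberg adjusted p under 0.05 over all transcripts. By that rule 51.9% of all named genes were above background, 39.1% below it and 8.93% not told apart. The median log2 signal above background was 4.85 over all 9 genes and 0.49 over all named genes. Since probes differ in brightness, such values rank no gene against another. In bulk RNA, fewer cells of a type and less RNA per cell cannot be told apart.

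**Figure D1:**
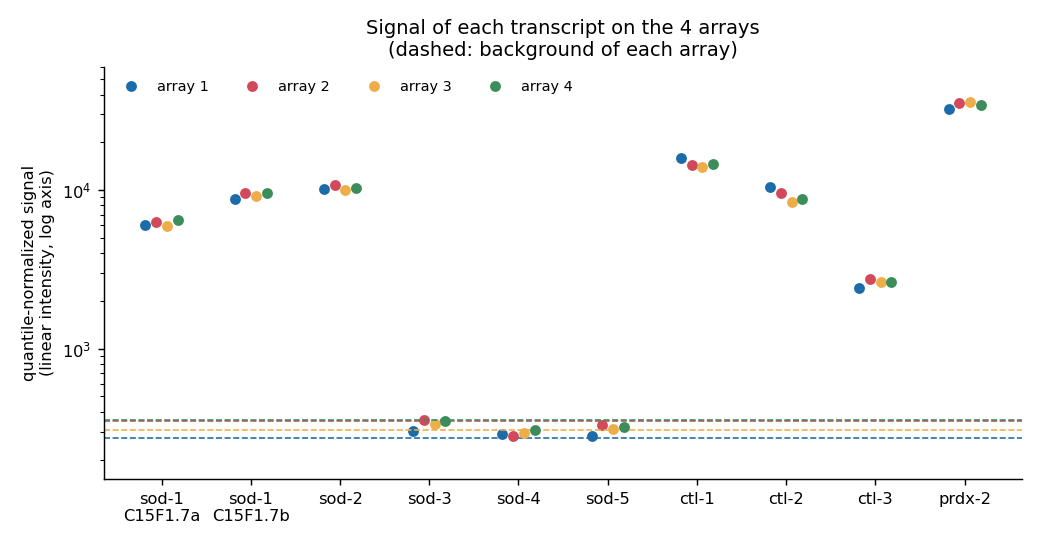
Quantile-normalized linear signal (vertical log axis) of the 10 transcripts on the 4 arrays, one point per array, with the background of each array as a dashed line of the same colour. The transcripts of sod-3, sod-4 and sod-5 sit among the backgrounds of 272 to 357, and the other 7 transcripts lie above all 4 backgrounds on every array.

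The main cytosolic dismutase gene sod-1 and the mitochondrial gene sod-2 were both above background. The transcript C15F1.7b of sod-1 had signals of 8832, 9633, 9157 and 9556 on arrays 1 to 4. On the log2 scale it lay 4.86 above background, with a 95% interval of 4.66 to 5.07 (limma adjusted p = 2.62e-10, n = 4). Its lowest signal was on array 1 and its highest on array 2, a range of 1.09-fold. The other transcript of sod-1, C15F1.7a, had signals of 6005, 6262, 5894 and 6454 and lay 4.27 above background (limma adjusted p = 4.47e-10). Within an array the log2 signal of C15F1.7b exceeded that of C15F1.7a by 0.59 ± 0.039 (SD, n = 4). The 2 transcripts thus kept nearly the same distance on each array, which does not give their relative amounts, since the probes differ.

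The mitochondrial gene sod-2 had signals of 10193, 10712, 9960 and 10282, with the lowest on array 3 and the highest on array 2. It lay 5.01 above background on the log2 scale, with a 95% interval of 4.79 to 5.23 (limma adjusted p = 2.77e-10). Its range over the arrays was 1.08-fold. Its SD was 3.06% of its mean signal (n = 4).

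The remaining dismutases lay on the background itself. The second mitochondrial gene, sod-3, had signals of 303, 356, 338 and 348, above the background of arrays 1, 2 and 3 and below that of array 4. Its mean log2 signal was 0.073 above background, with a 95% interval of -0.13 to 0.27 (limma adjusted p = 0.436). The extracellular dismutase gene sod-4 had signals of 291, 282, 293 and 309 and exceeded the background on 1 array, array 1. Its mean lay at -0.12, with an interval of -0.35 to 0.11 (limma adjusted p = 0.269). The second cytosolic gene, sod-5, had signals of 280, 329, 311 and 322 and exceeded the background on arrays 1 and 3. Its mean lay at -0.041, with an interval of -0.24 to 0.16 (limma adjusted p = 0.655). For these 3 genes the arrays give only a bound, and no array shows that their probes respond.

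These calls of sod-3, sod-4 and sod-5 rest on where the background is set. With the 75th percentile of the chemoreceptors all 3 were called above it, by 0.91, 0.71 and 0.79 on the log2 scale (limma adjusted p = 8.86e-06, 3.17e-05 and 1.66e-05), and 70.1% of all named genes were above as well. With the 99th percentile all 3 were called below, at -0.84, -1.03 and -0.95 (limma adjusted p = 1.41e-05, 1.49e-05 and 6.44e-06), where 44% of all named genes were above and 51% below. Against the 25th percentile of all transcripts all 9 genes were above, as were 66.2% of all named genes. The other 6 genes stayed above background under all 3.

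**Figure D2:**
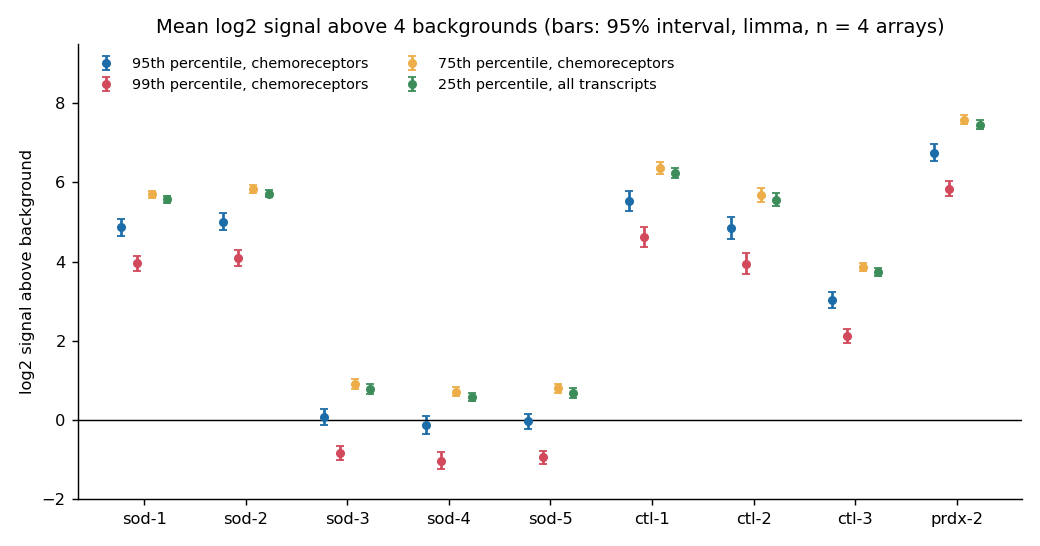
Mean log2 signal above background (vertical axis) of the 9 genes against 4 definitions of the background, with bars for the 95% interval from limma over 4 arrays. The values of sod-3, sod-4 and sod-5 cross 0 as the background moves, from -1.03 for sod-4 with the 99th percentile to 0.91 for sod-3 with the 75th, while the other 6 genes stay above 0.

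The low signals of sod-3 and sod-5 were both lowest on array 1, by -0.15 on the log2 scale from their own means, and both highest on array 2. At background level such differences do not measure the transcripts. The background itself was lowest on array 1, by -0.23 on the same scale, and its part in this pattern was not tested. The median transcript among those not told apart from background ran the other way on array 1, at 0.052. The sod-4 signal followed neither, with its lowest value on array 2 and its highest on array 4.

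The catalase genes form 1 cluster on chromosome II, where ctl-2, ctl-1 and ctl-3 follow each other with no other protein-coding gene between them in the order of the RefSeq annotation (assembly WBcel235). They are close copies, and with the probe sequences not used here, signal shared between them cannot be split. For ctl-1, which encodes a cytosolic catalase, the signals were 15926, 14395, 14013 and 14519. It lay 5.53 above background on the log2 scale, with a 95% interval of 5.27 to 5.78 (limma adjusted p = 3.27e-10). The signal was highest on array 1, and without that array the range fell from 1.14-fold to 1.04-fold.

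The peroxisomal catalase gene ctl-2 had signals of 10385, 9546, 8367 and 8744, highest on array 1 and lowest on array 3. It lay 4.85 above background, with an interval of 4.58 to 5.13 (limma adjusted p = 8.94e-10). Its range of 1.24-fold was the largest of the 9 genes, and its SD was 9.68% of its mean. The third catalase gene, ctl-3, had signals of 2422, 2744, 2644 and 2624, lowest on array 1 and highest on array 2. It lay 3.03 above background, with an interval of 2.82 to 3.24 (limma adjusted p = 3.43e-09). Within the cluster, the profiles of ctl-1 and ctl-2 over the arrays had a root mean square log2 difference of 0.067. The profile of ctl-3 differed from them by 0.13 and 0.17. Some pairs outside the cluster were closer than ctl-1 and ctl-2, such as sod-1 and sod-2 at 0.039 and ctl-3 and prdx-2 at 0.032. Others were further apart, up to 0.19 for sod-3 and ctl-2.

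The peroxiredoxin gene prdx-2, which encodes a 2-Cys peroxiredoxin of the cytosol, had signals of 32310, 35252, 36042 and 34299. It lay 6.75 above background on the log2 scale, with a 95% interval of 6.54 to 6.97 (limma adjusted p = 2.58e-10). The signal was lowest on array 1 and highest on array 3, a range of 1.12-fold.

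The 6 genes above background ranged from 1.08-fold to 1.24-fold over the arrays. Their median range was 1.12-fold, against 1.20-fold over the 10067 named genes above background, of which the middle part between the 25th and 75th percentiles ran from 1.10-fold to 1.40-fold. None of the 6 reached a range of 1.5-fold, which 18.7% of all named genes above background did. With so few genes this is a description of these arrays. Among all named genes above background, 14.9% had a smaller range than sod-2, 20.3% than sod-1, 29.3% than prdx-2, 34.3% than ctl-3, 35.6% than ctl-1 and 57.7% than ctl-2. These shares depend on signal level. Among genes within 0.5 log2 of the same mean signal, 82.8% (of 267) had a smaller range than prdx-2, 81.0% (of 2433) than ctl-2 and 69.4% (of 1991) than ctl-1. The corresponding shares were 32% (of 2425) for sod-1, 25.4% (of 2411) for sod-2 and 18.4% (of 1314) for ctl-3. Against genes of like signal, 3 of the 6 thus ranged more than most and 3 less.

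**Figure D3:**
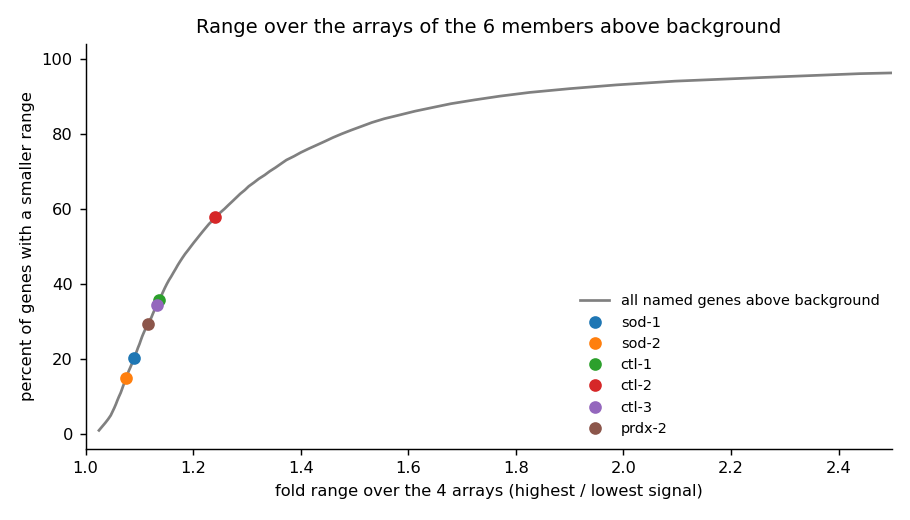
Fold range over the 4 arrays (horizontal axis, highest over lowest signal) against the percent of genes with a smaller range (vertical axis), as a grey curve for the 10067 named genes above background and as points for the 6 genes above background. The points run from 1.08-fold for sod-2 to 1.24-fold for ctl-2, and 5 of the 6 lie left of the median of 1.20-fold.

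The arrays themselves differed in markers of muscle, cuticle, intestine and heat shock far more than in these enzymes. These lists were chosen with earlier results of these data known, so the contrast is a description and no test. The maternal list, with a median range of 1.12-fold, varied as little as the 6 enzymes above background. Body wall muscle genes were highest on array 1, in all 9 of the listed 10 that were above background, with a median log2 deviation of 1.32 there and -1.07 on array 2. The paramyosin gene unc-15 had the largest range of that list, 7.39-fold. On array 1 the median deviation was 0.77 for cuticle genes and 0.42 for intestine genes, taken over the 6 of 8 and 4 of 8 members above background, with ranges of up to 5.54-fold for the collagen gene dpy-3 and 4.72-fold for the intestinal filament gene ifb-2. All 5 inducible heat shock genes were above background and ran the other way, at -1.12 on array 1 and 0.70 on array 4, and the chaperone gene hsp-70 spanned 6.79-fold. The summed signals of these lists ranged from 9236 to 45457 for muscle, 41988 to 91657 for cuticle, 11380 to 20859 for intestine and 13682 to 44230 for heat shock.

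Against these shifts, the median log2 deviation of the 6 enzymes above background was -0.043, 0.051, -0.033 and -0.0032 for arrays 1 to 4. The same medians over all named genes above background were -0.059, 0.029, 0.0060 and 0.018. On array 1, ctl-2 deviated by 0.17 and ctl-1 by 0.12, the direction of the muscle, cuticle and intestine lists. On array 2, where those 3 lists had their lowest medians, ctl-2 had its second highest signal, with a deviation of 0.049. The genes ctl-3, prdx-2 and sod-1 were lowest on array 1, by -0.11, -0.092 and -0.073, and sod-2 lay close to its mean there, at -0.013. The sperm, early zygotic and maternal lists also had negative medians on array 1, at -0.38, -0.22 and -0.099. The part of the tissue markers in the catalase signals was not tested.

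**Figure D4:**
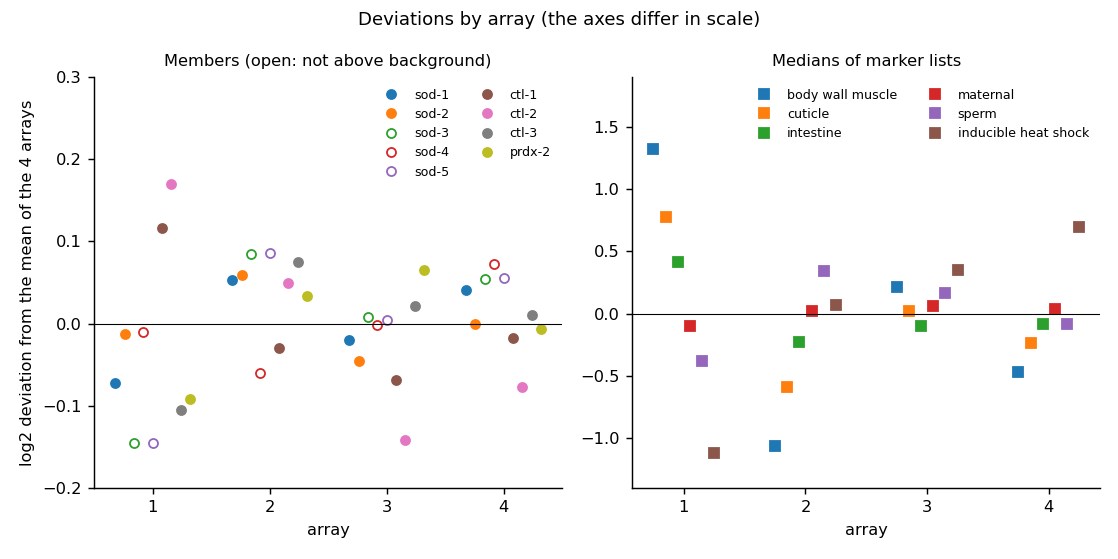
Log2 deviation of each array from the 4-array mean (vertical axis), for the 9 genes on the left, with open points for those not above background, and for the median of 6 marker lists on the right. The scales differ: the genes stay between -0.15 and 0.17, while the list medians run from -1.12 for heat shock to 1.32 for muscle, both on array 1.

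Markers of early embryos were present. The counts of these lists stand beside 51.9% of all named genes above background and 39.1% below. All 10 maternal genes and all 8 early zygotic genes of the lists were above background, with median log2 levels above it of 6.29 and 3.54. The largest ranges in these lists were 1.30-fold for the maternal gene nos-2 and 1.51-fold for the zygotic gene sdz-1. The 6 vitellogenin genes, which encode yolk proteins of the adult intestine, were all called below background. The signals of vit-2, vit-3, vit-4 and vit-5 ran from 245 to 287. On every array they lay above the 75th percentile of the chemoreceptors, 173 to 186, and the 25th percentile of all transcripts, 194 to 197. Their place below background thus rests on where it is set. Sperm genes were above background in 6 of 8 cases, with the major sperm protein gene msp-19 ranging over 2.89-fold, lowest on array 1.

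Other genes of the antioxidant system were taken from 6 lists with 64 genes, of which 56 were above background, 5 below and 3 not told apart. The share of named genes above background, 51.9%, applies to each list. The list of other peroxidases had 7 of 10 members above. It had 5 above with the 99th percentile as background, where 44% of all named genes were above. With limma's trend and robust options it had 6, where 51.3% of all named genes were above. The mitochondrial peroxiredoxin gene prdx-3 had signals of 9890, 11099, 10469 and 10178 and lay 5.03 log2 above background (limma adjusted p = 2.65e-10). The peroxiredoxin gene prdx-6 lay 3.15 above it, and the glutathione peroxidase gene gpx-1 3.07. Of the glutathione peroxidases gpx-7 and gpx-8 were called below, at -1.04 and -0.45. The gene gpx-6, named because it alone of its list was not told apart, lay at 0.12. With the 75th percentile of the chemoreceptors gpx-8 was called above, at 0.39 (limma adjusted p = 0.00604), as was gpx-6, at 0.96 (limma adjusted p = 0.00026). With the 99th percentile gpx-6 was called below, at -0.79 (limma adjusted p = 0.000531). The gene gpx-5 had the largest range of the list, 2.81-fold, with signals of 1638, 583, 886 and 758, and its call above background (1.49, limma adjusted p = 0.000665) was lost with the 99th percentile. Its highest value was on array 1 and its lowest on array 2, as for the muscle list.

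Genes of the thioredoxin and glutathione systems were largely above background. The thioredoxin and glutaredoxin list had 12 of 14 members above, with a median range of 1.10-fold among them. The mitochondrial thioredoxin gene trx-2 lay 3.69 log2 above background and trx-1, known in worms from sensory neurons, 0.50 (limma adjusted p = 0.00723). The thioredoxin genes trx-3 and trx-5 were called below, at -0.71 and -0.30. The trx-5 call was lost without array 3 (-0.30, limma adjusted p = 0.0515). With the 75th percentile of the chemoreceptors trx-5 was called above, at 0.53 (limma adjusted p = 0.00195), and trx-3 was not told apart, at 0.13. Against the 25th percentile of all transcripts trx-5 was above as well, at 0.40 (limma adjusted p = 0.0136), and trx-3 again not told apart. The trx-1 call turned to below, at -0.41, when the 99th percentile was used. Of the glutathione list, 8 of 10 were above. Both genes of glutathione synthesis were among them, gcs-1 at 4.46 and gss-1 at 4.51, as was the glutathione reductase gene gsr-1 at 5.53.

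In the same list gst-10, a glutathione transferase gene, had the largest range among those above background, 1.45-fold. The omega-class gene gsto-1 was called below, at -1.03. The transferase gene gst-4, widely used in worms as a reporter of the stress factor SKN-1, was named after its values were seen. It had signals of 222, 549, 370 and 338 and lay at 0.14, not told apart from background (limma adjusted p = 0.398). Its signal was lowest on array 1 and below the background there. Without that array gst-4 was called above, at 0.28 (limma adjusted p = 0.0192). The call also turned with the background, to below with the 99th percentile (-0.77, limma adjusted p = 0.00177) and above with the 75th (0.97, limma adjusted p = 0.00484). Against the 25th percentile of all transcripts gst-4 was above as well, at 0.85 (limma adjusted p = 0.0126).

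All 11 genes of peroxisome biogenesis and import were above background, among them prx-1 at 2.64, prx-2 at 2.85 and prx-3 at 2.43 on the log2 scale. Peroxisomes house the enzyme encoded by ctl-2. The widest range in this list was 1.46-fold, for prx-2. Regulators of the antioxidant response were above background in all 11 cases. The FOXO gene daf-16 had signals of 12348, 10745, 11030 and 10800 and lay 5.14 above background (limma adjusted p = 5.99e-10). The gene skn-1 lay 5.58 above it, and pqm-1, a zinc finger factor, 1.27. The signals of pqm-1 were 1187, 595, 642 and 766, a range of 2.00-fold with its highest value on array 1. The call of pqm-1 was lost with the 99th percentile as background, at 0.36 (limma adjusted p = 0.142). The transcript of daf-16 was thus above background. That of sod-3, the gene used to report on DAF-16, was not told apart from background. Its call rests on where the background is set, at 0.91 with the 75th percentile (limma adjusted p = 8.86e-06) and -0.84 with the 99th (limma adjusted p = 1.41e-05). No array shows that the sod-3 probes respond, and the activity of DAF-16 was not measured.

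Among sources of oxidants, 7 of 8 genes were above background. The succinate dehydrogenase gene mev-1 lay 5.56 log2 above it, and bli-3, a dual oxidase gene that acts in the cuticle, 3.20. The second dual oxidase gene, duox-2, was the 1 not told apart, at 0.14 (limma adjusted p = 0.161). With the 99th percentile duox-2 was called below (-0.77, limma adjusted p = 3.31e-05) and with the 75th above (0.97, limma adjusted p = 1.76e-05). The signals of bli-3 were 4124, 2600, 2622 and 2612, with array 1 well apart from 3 nearly equal values.

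**Figure D5:**
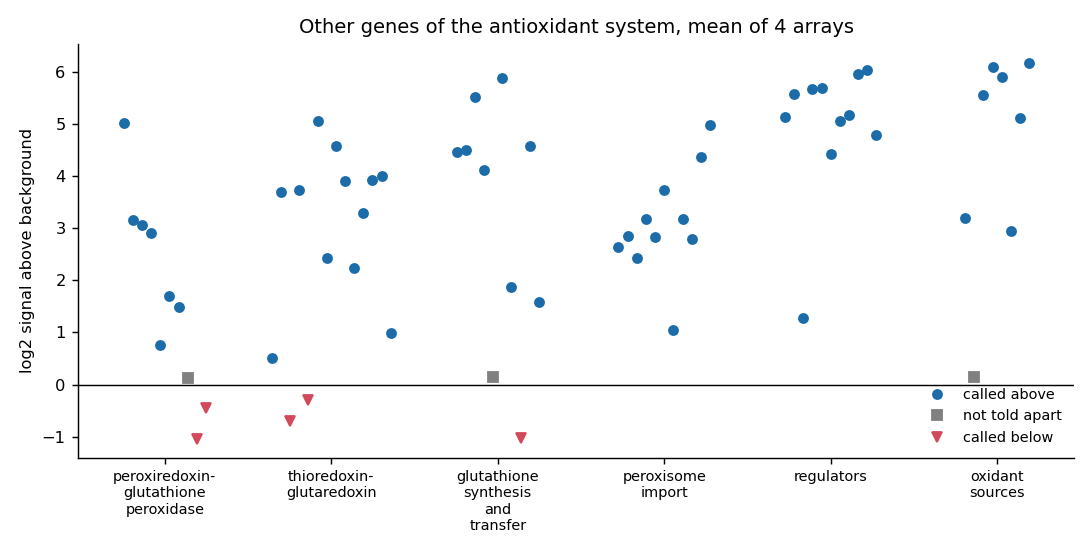
Mean log2 signal above background over 4 arrays (vertical axis) of the 64 genes in 6 lists of the antioxidant system, with blue circles for genes called above background, red triangles for those below and grey squares for those not told apart. All 11 genes of the import list and all 11 of the regulator list lie above 0. The 5 genes called below belong to the peroxidase, thioredoxin and glutathione lists.

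By position, 6 of the 9 genes lie on chromosome II, with sod-2 on I, sod-4 on III and sod-3 on X. Their directly flanking protein-coding genes, 14 in number when the catalases themselves are left out, were above background in 13 cases and below in 1, where 51.9% of all named genes were above and 39.1% below. The single gene below flanks sod-3. The 4 genes that flank sod-4 and sod-5 were above background.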

How the data were processed

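Per the labels' protocols, NimbleGen made Cy3-labelled material from the total RNA of 4 samples, which form 1 group. Per the file headers and file naming, the authors quantile normalized the linear intensity values and averaged them to a single one for each transcript. The sources used here give no build, background correction, scanner or number of probes. The deposited table of the series held the same values (largest difference 0). Of 23181 transcripts, 17151 matched a RefSeq gene as written and 5352 without the isoform letter. Log2 signals (floor 1) minus each array's background were fitted with limma 3.58.1 (R 4.3.3, intercept only, eBayes, two-sided). For genes with several transcripts the one of highest mean signal was used, and 1 transcript above background sufficed for a call above. On simulated data, transcripts set 0.25 or 0.5 log2 above background were called in 76.5% and 89.5% of cases. Of those at 0, 4% were called above and 3.5% below. Such rates hold for that simulation only. On the real arrays every transcript has the same background value subtracted, so an error in that value is shared by all of them. The rates do not cover this error or the choice of percentile, and so give no error rate for these calls. The labels do not say whether replicates were separate cultures, so p-values measure only the spread between these samples, which may be technical. It is the spread of signal minus background, so differences in background between arrays enter it. Precision is limited by the number of arrays.

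The genes and lists were chosen with earlier results of these data known. Genes named were all 9 genes, the first 3 of each antioxidant list, up to 2 more with the opposite call, and the gene with the largest range among those above background in each list. Genes of most similar profile were to be named for any of the 9 above background with a range of at least 1.5-fold, and none had one. Alternatives were 3 other backgrounds, limma with trend and robust, a floor of 64, each replicate left out, other scalings and the mean over transcripts.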

Additional observations from a re-analysis of the deposited data

Results flagged for a closer look

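Of 137 transcripts checked over the 4 arrays, which are the 10 of the dismutases, catalases and peroxiredoxin and the 127 of the antioxidant and marker lists, 3 had 1 array far from the others by Dixon's test. The gap between that array and the nearest other one made up 0.982 of the whole log2 range for the dual oxidase gene bli-3, highest on array 1. It made up 0.951 for the peroxisome import gene prx-14 and 0.833 for the thioredoxin reductase gene trxr-2, both lowest on array 1. The last 2 genes were named after their values were seen. Chance flags about 1 such group in 20, and 3 of 137 is fewer than that rate gives. None of the 10 transcripts of the 9 genes was among those flagged, which at that rate says little.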

How the results depend on the processing

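The count of 6 genes above background held without each replicate in turn and with limma's trend and robust options. It held with the 99th percentile as well, where 44% of all named genes were above. The mean over transcripts, which among these genes can alter only sod-1, also left it at 6. The floor of 64 could change no value, since the lowest signal was 100.62, and is no check. The count rose to 9 with the 75th percentile (background share 70.1%) and with the 25th percentile of all transcripts (66.2%). The values of sod-3 were -0.84, 0.91 and 0.78 log2 above the 99th and 75th percentiles of the chemoreceptors and the 25th of all transcripts, those of sod-4 -1.03, 0.71 and 0.59, and those of sod-5 -0.95, 0.79 and 0.67, each past the threshold. With the background of each array subtracted, the median range of the 6 genes was 1.27-fold and their median deviations were 0.19, -0.080 and -0.16 on arrays 1, 2 and 4, a shift made by the backgrounds themselves, and ctl-2 then ranged over 1.56-fold. Leaving out 1 replicate gave median ranges of 1.05-fold (without array 1) to 1.12-fold. No paired analysis was possible because there is 1 group. The counts of the 6 other lists stayed within 1.5 times their value under each alternative run. Given the list sizes, no count could have risen past that limit, so only a large fall could have shown. A background set too high or too low on all arrays alike would not show in the spread.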
